A study of Mus musculus with 15 samples.

Results

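SIRT5 overexpression in pressure-overloaded hearts was described from 8 of the 15 hearts of the series, as the comparison of 4 SIRT5OE TAC hearts with 4 WT TAC hearts. All hearts that the labels put in these groups were used, and all genes that reached 10 normalized counts in 3 or more of the 15 hearts, which were 16690 of 36727. SIRT5OE mice carried a LoxP-STOP-LoxP-SIRT5 cassette under the constitutive CAGGS promoter, inserted at the Col1a1 locus of a single V6.5 embryonic stem cell clone, and Sox2-Cre had removed the STOP element, so the transgene was on throughout the body and not in cardiomyocytes alone. WT mice were littermates, all mice were male and 4 to 8 months old at surgery, and both groups had transverse aortic constriction (TAC), which narrows the aorta and loads the left ventricle. Hearts were taken 4 weeks after surgery and RNA was sequenced from the whole heart. The 4 WT sham and 3 SIRT5OE sham hearts had the same surgery without the constriction and give the unloaded level. They also entered the fit that sets the error of every limma test below.

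SIRT5 is a sirtuin, an NAD+-dependent enzyme that sits mainly in the mitochondrial matrix and takes succinyl, malonyl and glutaryl groups off lysines of metabolic enzymes. A pressure-overloaded heart is known to turn on fetal and stretch-responsive genes in cardiomyocytes, stress-response and cytokine genes, and matrix genes in fibroblasts. It is also known to turn down genes of fatty acid oxidation and of the potassium channels that shape the action potential. The genes below are ordered by these roles.

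Values are normalized counts, scaled by the authors so that hearts can be compared for a gene. TAC hearts are written WT1 to WT4 and OE1 to OE4, by genotype and replicate number, and single values follow that order. A log2 fold change is the difference SIRT5OE TAC minus WT TAC in mean log2(normalized count + 1), with its standard error (SE) and a Benjamini-Hochberg adjusted p from limma over the 16690 genes. A gene was called at an adjusted p under 0.05, and a called gene with an absolute log2 fold change over 1 was a DEG. The summed normalized counts of a TAC heart were 56233957 to 61577670 in WT and 63960360 to 70497065 in SIRT5OE mice. The most common low value, about what 1 read is worth, was 0.755 to 1.20 in WT TAC and 1.07 to 1.47 in SIRT5OE TAC hearts, and whole reads could not be recovered from the values. OE3 stood apart from its group toward WT TAC, and WT3 from its group toward SIRT5OE TAC, as given near the end.

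Between the TAC groups 165 DEGs were higher in SIRT5OE hearts (0.989% of the genes tested) and 153 were lower (0.917%), 318 in all (1.91%). At the adjusted p alone 635 genes were higher (3.8%) and 573 lower (3.43%), while the median log2 fold change of all genes was 0.00047. With hearts scaled to equal totals outside mitochondrially encoded genes the split was 482 higher and 822 lower. Of the DEGs, 144 of those higher and 149 of those lower were protein-coding. In 74 of the 165 and 46 of the 153 the hearts of the TAC groups did not overlap, beside 4.06% (higher) and 3.94% (lower) of all genes. The sham groups differed in 3 genes (0.018%), and 0 genes (0%) had an interaction of genotype and TAC at an adjusted p under 0.05 from limma, with 2206 at an unadjusted p under 0.05. A difference between the TAC groups is therefore not shown to differ from that between the sham groups for any single gene with all 15 hearts. In whole-heart RNA, fewer cells of a type and less RNA per cell cannot be told apart.

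The number of calls depended on single hearts, and the sizes of the differences much less. Without WT2 there were 4 DEGs higher and 0 lower, without WT4 there were 10 and 0, without OE2 there were 6 and 1, and without OE4 there were 5 and 0. Without OE1 the numbers were 27 and 18, and with 1 sham heart left out they were 94 to 119 and 66 to 95. They rose to 469 and 494 without WT3 and to 363 and 460 without OE3. Of the 318 DEGs, 314 had an adjusted p between 0.02 and 0.05, and 4 genes of the 1208 called at the adjusted p alone stayed called whichever heart was left out. These were Sirt5, Gpr22, Gm17428 and Gm4811. In a fit of the 8 TAC hearts alone there were 2 DEGs higher and 1 lower. Where a paragraph below says that a call was lost, it was lost in this sense, and p-values given as upper limits are the highest over the 15 fits with 1 heart left out. At the adjusted p alone, leaving out 1 sham heart gave 293 to 434 genes higher and 241 to 387 lower. Without WT3 these numbers were 1691 and 1683, and without OE3 they were 1295 and 1426. Counts of list members below, with all 15 hearts, are to be read beside 3.8% of all genes higher and 3.43% lower.

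**Figure D1:**
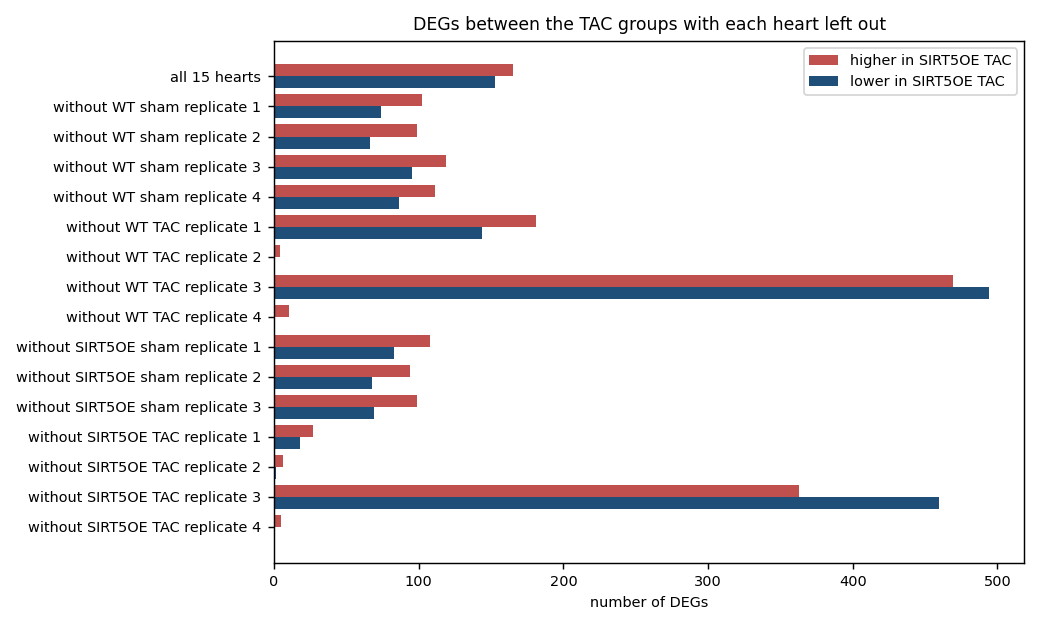
Number of DEGs (horizontal axis) that were higher (red) and lower (blue) with SIRT5 overexpression among the TAC hearts, with all 15 hearts and with each heart left out. The bars fall to between 0 and 10 without WT2, WT4, OE2 or OE4, and rise to between 363 and 494 without WT3 or OE3.

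Sirt5 itself checked the labels. It had 2113, 1574, 2034 and 1853 in WT TAC and 43932, 30432, 32512 and 35703 in SIRT5OE TAC hearts. Sham hearts had 2169 ± 154 (SD, n = 4) in WT sham and 40866 ± 1972 (SD, n = 3) in SIRT5OE sham hearts. The groups did not overlap, and the log2 fold change was 4.23 (SE 0.11, adjusted p = 1.22e-12), called in every alternative. Of the other sirtuins, the nuclear deacylase Sirt6 had 291, 331, 296 and 429 in WT TAC and 233, 247, 238 and 190.0 in SIRT5OE TAC hearts, with every SIRT5OE TAC heart below every WT TAC heart. Its log2 fold change of -0.56 (SE 0.15, adjusted p = 0.0442) was lost without WT2, WT4, OE1, OE2 or OE4 or any 1 sham heart (adjusted p up to 0.151). The nuclear Sirt1 had 0.32 and was not called (adjusted p = 0.14).

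Several of the largest increases came from copies of other genes, whose reads cannot be assigned with certainty. Gm4811 and Gm8494, the only DEGs besides Sirt5 of both the TAC and the sham comparison, are processed pseudogenes on chromosome 13 (64927942 to 64929161) and chromosome 5 (146574888 to 146576120) of GRCm38. Gm4811 had 0, 0, 0 and 0 in WT TAC and 52, 46.3, 38.3 and 8.49 in SIRT5OE TAC hearts. In sham hearts it had 0, 0, 0 and 1.11 in WT sham replicates 1 to 4 and 43.5, 33.3 and 36.9 in SIRT5OE sham replicates 1 to 3. Gm8494 had 0, 0, 0 and 5.55 in WT TAC and 23.2, 29.2, 13.8 and 7.03 in SIRT5OE TAC hearts, and its sham values were 0, 0, 0 and 0 in WT sham replicates 1 to 4 and 38.9, 21.5 and 39.1 in SIRT5OE sham replicates 1 to 3. Both were listed at 0 in nearly all WT hearts and above 0 in all SIRT5OE hearts of either surgery. Aligned to the reference transcripts, Gm8494 matched Smarce1, a chromatin remodelling subunit, at 98.946% identity over 1233 bases and Gm4811 at 97.39% over 1226, and neither matched Sirt5. Smarce1 lies on chromosome 11 (99209047 to 99231017), 4.28 Mb from the middle of Col1a1, where the cassette was inserted. It had 3234, 3315, 3892 and 3347 in WT TAC and 2698, 3160.5, 3509 and 2950.2 in SIRT5OE TAC hearts (log2 fold change -0.17, SE 0.09, adjusted p = 0.226). Summed with Gm8494 and Gm4811 it was 3234 to 3892 in WT TAC and 2773 to 3561 in SIRT5OE TAC hearts (log2 difference -0.14, two-sided exact permutation test, p = 0.229).

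Gm10184 showed the same pattern more sharply, with 0, 0, 0 and 14 in WT TAC and 4723, 3420.3, 4397 and 4448 in SIRT5OE TAC hearts. In sham hearts it had 19.1, 3426, 0 and 3575 in WT sham replicates 1 to 4 and 3116, 3669 and 3327 in SIRT5OE sham replicates 1 to 3, so WT sham replicates 2 and 4 were at the SIRT5OE level. Its transcript matched Kpna2, an importin, at 99.898% identity over 1968 bases, and Kpna2 lies on chromosome 11 (106988629 to 106999541), 12.05 Mb from Col1a1. Kpna2 went the other way, with 2973, 3386, 3738 and 2906 in WT TAC and 1219.6, 1477, 1498 and 1706 in SIRT5OE TAC hearts and a log2 fold change of -1.14 (SE 0.24, adjusted p = 0.0289). Summed with Gm10184 it was 2919.5 to 3738 in WT TAC and 4898 to 6155 in SIRT5OE TAC hearts (log2 difference 0.82, two-sided exact permutation test, p = 0.0286, the smallest p that 4 against 4 hearts allow). In WT sham replicates 1 to 4 this sum was 3111, 4803, 3242 and 4971, and in SIRT5OE sham replicates 1 to 3 it was 4473, 5038 and 4771, so WT sham replicates 2 and 4 lay within the SIRT5OE sham range. Gm28661 and Gm28437, copies of mitochondrial sequence on chromosome 1, were identical to mt-Co2 over 681 bases and to mt-Co3 over 783 bases (100% identity each). Gm28661 had 143551, 53895, 145944 and 266307 in WT TAC and 781117, 670547, 626380.0 and 523442 in SIRT5OE TAC hearts, while mt-Co2 itself had a log2 fold change of 0.17 (adjusted p = 0.663). Gm17428 had 8.19, 2.56, 6.89 and 3 in WT TAC and 91.5, 77.3, 52.3 and 289 in SIRT5OE TAC hearts (log2 fold change 4.18, SE 0.52, adjusted p = 0.0025). LT629151.4 had 375, 3.81, 0 and 0 in WT TAC and 447, 902, 413 and 683 in SIRT5OE TAC hearts. The alignment gave no match of Gm17428 to another gene, and LT629151.4 has no position in the annotation used. Neither is therefore shown to be a copy. The pseudogenes Gm6852 and Gm31663 had log2 fold changes of 1.81 (adjusted p = 0.0326) and 1.49 (adjusted p = 0.0281). The Gm10184 call was lost without WT2, OE2 or OE4 (adjusted p up to 0.0929), and those of Kpna2, Gm8494, Gm28661, Gm6852, Gm31663 and LT629151.4 without these 3 hearts and, for all but Gm28661, others.

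Around Col1a1 on chromosome 11, 18 of 286 kept genes within 10 Mb were called (6.29%), beside 7.24% of all genes. Within 5 Mb it was 12 of 132 (9.09%) and within 20 Mb 28 of 509 (5.5%), and 0 were called between the sham groups in any window. The 4 DEGs within 10 Mb were Col1a1 and the homeobox gene Meox1, both lower, and the PAR bZIP factor Hlf and Krt222, both higher. The count within 10 Mb was 0 without WT2, WT4 or OE4, 1 without OE2, 2 without OE1, and 50 and 47 without WT3 and without OE3. Since the cassette sits in the Col1a1 gene, Col1a1 was set against its partner chains per heart. As log2 of Col1a1 minus the mean of Col1a2 and Col3a1, it was -0.90, -0.99, -0.95 and -0.60 in WT1 to WT4 and -1.20, -1.04, -1.22 and -1.42 in OE1 to OE4. Every SIRT5OE TAC heart was below every WT TAC heart (difference -0.36, two-sided exact permutation test, p = 0.0286). Against Col3a1 alone the hearts overlapped (difference -0.42, exact p = 0.0571). In sham hearts the means were -1.04 ± 0.0751 (SD, n = 4) in the WT group and -0.999 ± 0.119 (SD, n = 3) in the SIRT5OE group, a difference of 0.0365 (exact permutation test, p = 0.629). With 1 TAC heart left out the TAC difference was -0.42 to -0.27 and its exact p was 0.0571 without WT1, WT2, WT3, WT4 or OE4 and 0.0286 otherwise, where 0.0286 is the smallest possible for 3 against 4.

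**Figure D2:**
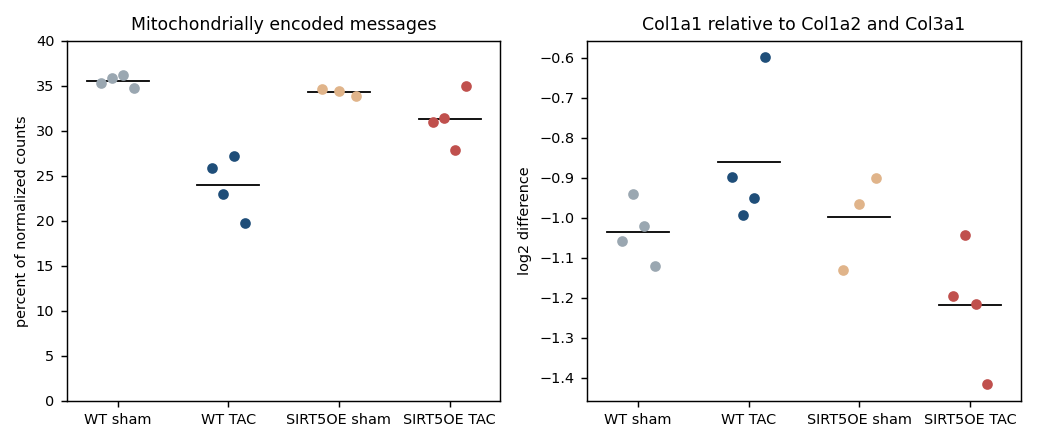
Share of normalized counts from mitochondrially encoded messages (left, percent, axis from 0) and Col1a1 relative to Col1a2 and Col3a1 (right, log2 difference) in each heart, with 1 point per heart and a line at the group mean. In both panels the SIRT5OE TAC points and the WT TAC points do not overlap, and the sham groups lie close together on the right.

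Gdf15 had the largest decrease among DEGs named by the rule for non-overlapping groups. It encodes a secreted member of the TGF-beta superfamily that rises with mitochondrial and integrated stress, and had 1349, 4324, 731 and 3358 in WT TAC and 162, 226, 602 and 126 in SIRT5OE TAC hearts. Every SIRT5OE TAC heart was below every WT TAC heart, OE3 least so, and sham hearts had 54.6 ± 39.6 (SD, n = 4) in WT sham and 52.2 ± 23.6 (SD, n = 3) in SIRT5OE sham hearts. The log2 fold change between the TAC groups was -3.08 (SE 0.60, adjusted p = 0.0281), and -3.55 to -2.69 with 1 heart left out. Pycr1, an enzyme of mitochondrial proline synthesis and a target of the transcription factor ATF4, had 210.1, 444, 196 and 519.8 in WT TAC and 124, 106, 183 and 87.5 in SIRT5OE TAC hearts. Its sham means were 67.5 ± 7.7 (SD, n = 4) in WT sham and 81 ± 5.66 (SD, n = 3) in SIRT5OE sham hearts. Its groups did not overlap either, as the naming rule required of both genes, and its log2 fold change was -1.36 (SE 0.30, adjusted p = 0.0317). Ppp1r15a, which recruits the phosphatase of eIF2 alpha and was picked after its values were seen, had 3128, 4675, 2496 and 6058 in WT TAC and 1749, 1995, 2192 and 1604 in SIRT5OE TAC hearts (log2 fold change -1.04, SE 0.21, adjusted p = 0.0281). SIRT5OE TAC means stayed above the sham means of Gdf15 and Pycr1, and the TAC minus sham log2 fold change of Gdf15 was 5.39 in WT and 2.21 in SIRT5OE hearts. For Pycr1 it was 2.20 in WT and 0.57 in SIRT5OE hearts. At the adjusted p alone 33.7% of all genes differed between TAC and sham hearts in WT and 4.98% in SIRT5OE mice. The calls of all 3 genes were lost without WT2, WT4, OE1, OE2 or OE4 (adjusted p up to 0.124).

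Most of the integrated and endoplasmic reticulum stress list was not called. Of 26 kept members 4 were lower and 0 higher, beside 3.43% and 3.8% of all genes, with a median log2 fold change of -0.34 (-0.46 to -0.25 with 1 heart left out). The other members called were the disulfide isomerase Pdia4, -0.58 (adjusted p = 0.0342), and Creld2. The chaperone Hspa5 had -0.03 and the serine and asparagine synthesis genes Phgdh and Asns -0.13 and -0.04, none of them called. The count of members lower was 0 without WT2, WT4, OE1, OE2 or OE4, 7 without WT1, 8 without OE3 and 10 without WT3, and 1 was higher without WT3 or OE3. To show whether the called genes carry the letters that ATF4 and C/EBP dimers read, promoters of Gdf15 and Pycr1 were taken from RefSeq (GRCm38.p6, 250 bases before to 50 after the start, minus strand of chr8:70632407-70632706 and chr11:120643699-120643998). The motif TGATGNAA, searched on both strands, is in capitals.
Gdf15: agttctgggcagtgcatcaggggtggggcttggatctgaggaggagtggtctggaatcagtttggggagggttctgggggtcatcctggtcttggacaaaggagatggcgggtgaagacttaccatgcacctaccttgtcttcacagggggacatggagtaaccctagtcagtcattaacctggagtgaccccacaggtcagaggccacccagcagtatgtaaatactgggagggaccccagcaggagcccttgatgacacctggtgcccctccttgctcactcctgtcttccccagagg
Pycr1: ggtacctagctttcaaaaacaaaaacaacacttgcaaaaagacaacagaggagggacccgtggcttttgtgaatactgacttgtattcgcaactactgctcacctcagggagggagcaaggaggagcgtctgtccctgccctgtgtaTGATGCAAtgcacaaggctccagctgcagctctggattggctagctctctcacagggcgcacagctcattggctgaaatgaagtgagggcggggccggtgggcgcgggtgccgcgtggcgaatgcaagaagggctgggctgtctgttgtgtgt
Pycr1 holds 1 match, on the gene's own strand upstream of its start, and Gdf15 holds none in this window. The motif was in 6 of the 26 promoters matched among 27 genes of the stress list (Asns, Atf3, Chac1, Fgf21, Pycr1 and Trib3), 23.1%, beside 1096 of 27025 promoters in all (4.06%). Of these 6, Pycr1 was the only one called, and Fgf21 was not among the kept genes.

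Ankrd2, a stretch-responsive ankyrin repeat protein of muscle, had 347, 897, 141 and 841 in WT TAC and 103.4, 49.5, 109.8 and 26.3 in SIRT5OE TAC hearts. Unloaded hearts had 14 ± 4.4 (SD, n = 4) in WT sham and 13.2 ± 6.73 (SD, n = 3) in SIRT5OE sham hearts. The groups did not overlap and the log2 fold change was -2.80 (SE 0.56, adjusted p = 0.0281), the largest decrease among the 12 lowest after Gdf15. Gadd45g, a stress sensor of the growth arrest and DNA damage family, had 1514, 2891, 1227 and 4239 in WT TAC and 583, 657, 876 and 320.4 in SIRT5OE TAC hearts (log2 fold change -1.93, SE 0.34, adjusted p = 0.0226). Rcan1, a calcineurin inhibitor that is itself a calcineurin target, had 34150.4, 40180.2, 17282 and 29066 in WT TAC and 11504, 8878, 16864 and 5711 in SIRT5OE TAC hearts (log2 fold change -1.53, SE 0.28, adjusted p = 0.0242). In all 3 genes the 4 SIRT5OE TAC hearts lay below the 4 WT TAC hearts, as the rule that named them required. WT3 was the lowest of its group in each. The matrix protease Adamts20 (log2 fold change -1.98, adjusted p = 0.0404), Megf11 (log2 fold change -1.75, adjusted p = 0.0317), Tuft1 (log2 fold change -1.65, adjusted p = 0.0289), Tmem254a (log2 fold change -1.42, adjusted p = 0.0489) and Gm13889 (log2 fold change -1.90, adjusted p = 0.0317) complete the lowest with non-overlapping groups, together with Meox1 and Socs3. Without WT2, WT4, OE2 or OE4 all these calls were lost, most of them also without OE1, and those of Adamts20 and Tmem254a also without single sham hearts (adjusted p up to 0.141), while the log2 fold change of Ankrd2 kept to -3.34 to -2.40 and that of Gadd45g to -2.21 to -1.61.

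**Figure D3:**
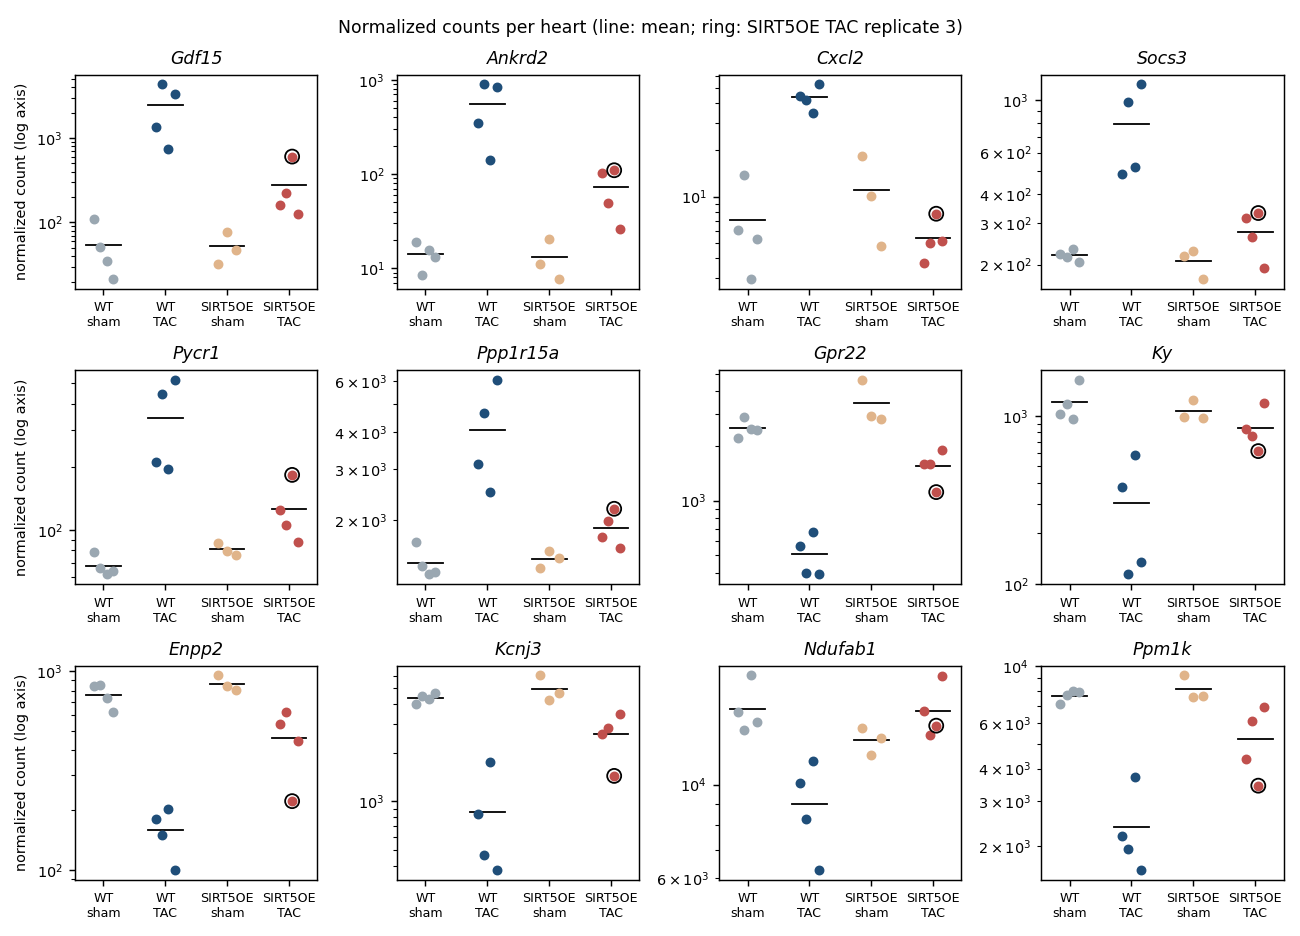
Normalized counts (vertical axis, log scale) of 12 genes in each of the 15 hearts, with 1 point per heart, a line at the group mean and a ring around OE3. Gdf15, Ankrd2, Cxcl2, Socs3, Pycr1 and Ppp1r15a are lower in all 4 SIRT5OE TAC hearts than in any WT TAC heart, and Gpr22, Ky, Enpp2 and Ndufab1 are higher, while Kcnj3 and Ppm1k overlap through OE3 and WT3. For Gdf15, Ankrd2, Socs3, Pycr1, Gpr22, Ky and Enpp2 the naming rule required groups without overlap.

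The hypertrophy and fetal gene list gave 15 of 20 members lower and 0 higher, a median log2 fold change of -1.23 (-1.45 to -1.07 with 1 heart left out). Its members of smallest p were Rcan1 and the intercalated disc and Z-disc proteins Xirp1 and Synpo2l. Xirp1 had 22739, 39982, 20764 and 47629 in WT TAC and 12990.4, 13665, 18277 and 10632 in SIRT5OE TAC hearts (log2 fold change -1.18, SE 0.22, adjusted p = 0.0281), without overlap. Synpo2l had 54280.4, 66469, 26045 and 64112 in WT TAC and 14259, 15989.9, 34267 and 12245 in SIRT5OE TAC hearts (log2 fold change -1.49, SE 0.29, adjusted p = 0.0281), with OE3 above WT3. The number of the list lower was 0 without WT2, WT4, OE2 or OE4, 2 without OE1 and 9 without WT1. Mature contractile genes of the adult sarcomere list had 0 of 16 called in either direction (median 0.11), its 3 members of smallest p being Myh6, Tcap and Myl2. Myh6, the adult myosin heavy chain, had 462844, 173087, 887822 and 361059.8 in WT TAC and 1096604, 942382, 636214 and 899000.1 in SIRT5OE TAC hearts (log2 fold change 1.13, SE 0.35, adjusted p = 0.0579), with OE3 below WT3, and was called higher without WT3 or OE3 and with a stricter filter on low values or array weights. Tcap, which caps titin, had 30681, 20647, 46491 and 45117 in WT TAC and 63698, 54649.7, 40584 and 59176 in SIRT5OE TAC hearts (log2 fold change 0.66, SE 0.22, adjusted p = 0.0721) and Myl2, the ventricular light chain, 0.51 (adjusted p = 0.0739). Without WT3 or OE3 the sarcomere list had 4 members higher, and without WT3 also 1 lower.

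Cytokine and chemokine genes were lower in SIRT5OE TAC hearts in 9 of 34 members and higher in 0, with a median log2 fold change of -0.76 (-0.86 to -0.58 with 1 heart left out). Cxcl2, a chemokine that draws neutrophils, had 44.8, 41.9, 34.5 and 52.9 in WT TAC and 3.75, 5.04, 7.76 and 5.22 in SIRT5OE TAC hearts. Its sham means were 7.06 ± 4.73 (SD, n = 4) in WT sham and 11.1 ± 6.82 (SD, n = 3) in SIRT5OE sham hearts. The SIRT5OE TAC hearts lay close to the sham means while every WT TAC heart was above them, a log2 fold change of -2.81 (SE 0.48, adjusted p = 0.0226). Socs3, which is induced by and limits JAK-STAT signalling of the IL-6 family, had 488, 983, 521 and 1171 in WT TAC and 316, 262, 332 and 194 in SIRT5OE TAC hearts (log2 fold change -1.44, SE 0.25, adjusted p = 0.0226). It was also among the 12 lowest genes, whose naming rule required groups without overlap. Tnfrsf12a, the receptor of the cytokine TWEAK, had 10614, 11942, 7086 and 16974 in WT TAC and 5171, 4540.4, 6325 and 2719.9 in SIRT5OE TAC hearts (log2 fold change -1.31, SE 0.27, adjusted p = 0.0289). Lif, an IL-6 family cytokine picked after its values were seen, had 111, 311, 54.2 and 344 in WT TAC and 29.9, 34.1, 69.2 and 6.87 in SIRT5OE TAC hearts (log2 fold change -2.53, SE 0.67, adjusted p = 0.038), and here OE3 exceeded WT3. Among members not called, the chemokine Ccl2 had a log2 fold change of -1.13 and Il1b -1.59. The count of members lower was 0 without WT2, WT4, OE2 or OE4, 2 without OE1 and 5 to 7 with 1 sham heart left out, and the 4 calls named were lost without WT2, WT4, OE2 or OE4 (adjusted p up to 0.137), Tnfrsf12a and Lif also without OE1, and Lif also without some single sham hearts. The number higher was 2 without WT3 or OE3.

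Markers of immune cells moved with these genes in part. The neutrophil list had 6 of 11 genes kept, which took 0.000346% to 0.000555% of counts in SIRT5OE TAC and 0.000669% to 0.00124% in WT TAC hearts, without overlap (two-sided exact permutation test, p = 0.0286, adjusted p = 0.171 over 12 marker shares). Retnlg, a neutrophil resistin-like gene, had 18, 38.7, 35.3 and 45.9 in WT TAC and 7.85, 6.15, 3.33 and 3.99 in SIRT5OE TAC hearts (log2 fold change -2.47, SE 0.61, adjusted p = 0.0345). The calprotectin subunit S100a9 had 135, 165, 109 and 209 in WT TAC and 80.4, 96.8, 63.6 and 70.5 in SIRT5OE TAC hearts (log2 fold change -0.96, SE 0.36, adjusted p = 0.0963). Neither gene overlapped between the groups, although only Retnlg was called. Macrophage and monocyte markers took 0.0364% to 0.0568% in SIRT5OE TAC and 0.0584% to 0.0753% in WT TAC hearts (exact p = 0.0286, adjusted p = 0.171). These marker shares, and those below, divide by a heart's summed normalized counts, which were higher in every SIRT5OE TAC than in any WT TAC heart. Equal marker counts would therefore give a lower share in SIRT5OE TAC hearts, and the shares were not tested apart from this total. Of 25 of them the complement subunits C1qa, C1qb and C1qc were lower and 0 higher (median -0.35). C1qc had 2553, 2617, 2666 and 3020.0 in WT TAC and 2415, 1847, 1974 and 1376 in SIRT5OE TAC hearts (log2 fold change -0.54, SE 0.14, adjusted p = 0.0349). The count was 0 without WT2, WT4, OE2 or OE4, 1 without WT1, 7 without OE3, 8 without WT3 and 0 to 3 with 1 sham heart left out, and 2 were higher without OE3. Lymphocyte markers had a median of -0.0014 with 1 of 16 higher, the costimulatory receptor Cd28 at 1.11 (adjusted p = 0.0347), and the adhesion and antigen presentation list 1 of 21 lower, Icam1, with 1091, 1218, 977 and 1498 in WT TAC and 814, 836, 866 and 593 in SIRT5OE TAC hearts (log2 fold change -0.62, SE 0.15, adjusted p = 0.0337). With 3.8% of all genes higher and 3.43% lower, 1 call in a list of 16 or 21 genes is close to the general rate. The calls of Retnlg, C1qc, Cd28 and Icam1 were lost without WT2, WT4, OE2 or OE4 (adjusted p up to 0.124), and all but C1qc also without OE1. The part of these cells in the cytokine differences was not tested.

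Matrix genes that were called were lower in SIRT5OE TAC hearts except for Ogn, and most members of each matrix list were not called. Of 19 collagens 6 were lower and 0 higher (median -0.92, -1.27 to -0.67 with 1 heart left out). Col4a2, a basement membrane chain, had 38629, 50514, 33857 and 52377 in WT TAC and 25326, 27937, 34031 and 18972 in SIRT5OE TAC hearts (log2 fold change -0.73, SE 0.16, adjusted p = 0.0324). Col1a1, the chain of fibrillar type I collagen, had 19339.5, 34519, 14363 and 36588 in WT TAC and 9298, 8151, 20106 and 5517 in SIRT5OE TAC hearts (log2 fold change -1.35, SE 0.32, adjusted p = 0.034). The transgene cassette sits at its locus. The count of collagens lower was 0 without WT2, WT4, OE1, OE2 or OE4, 16 without WT3 or OE3 and 3 to 4 with 1 sham heart left out. Of 20 genes of collagen processing and crosslinking 8 were lower and 0 higher (median -0.65). Serpinh1, the collagen chaperone, had 15093, 20027, 14062 and 16461 in WT TAC and 11476, 9405, 12953 and 8742 in SIRT5OE TAC hearts (log2 fold change -0.63, SE 0.14, adjusted p = 0.0317), all SIRT5OE TAC hearts below the WT TAC hearts, and the lysyl hydroxylase Plod3 had -0.82 (SE 0.18, adjusted p = 0.0317). This count was 0 without WT2, WT4, OE1, OE2 or OE4, 15 without WT3 or OE3 and 4 to 6 with 1 sham heart left out.

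Of 26 glycoproteins, elastic fiber genes and proteoglycans 6 were lower, among them Efemp2 (log2 fold change -0.84, adjusted p = 0.0337) and Emilin1 (log2 fold change -1.05, adjusted p = 0.0343), and 1 was higher (median -0.82). The one higher was Ogn, the small leucine-rich proteoglycan osteoglycin, with 4846, 4305, 4329 and 3159 in WT TAC and 6058, 5181, 6322 and 6230.3 in SIRT5OE TAC hearts (log2 fold change 0.53, SE 0.13, adjusted p = 0.0345). The count of members lower was 0 without WT2, WT4, OE1, OE2 or OE4, 17 without WT3 or OE3 and 2 to 4 with 1 sham heart left out, and Ogn was lost without WT2, WT4, OE1, OE2 or OE4, while 2 were higher without OE3. Of 25 matrix proteases and inhibitors 5 were lower and 0 higher (median -0.64). The membrane protease Mmp14 had 2094, 2335, 1396 and 2315 in WT TAC and 1185, 1327, 1392 and 808 in SIRT5OE TAC hearts (log2 fold change -0.79, SE 0.19, adjusted p = 0.034), without overlap. The protease inhibitor Timp1 had 2822, 10440.0, 1034 and 17125 in WT TAC and 1087, 472, 2222 and 258 in SIRT5OE TAC hearts (log2 fold change -2.70, SE 0.71, adjusted p = 0.0383), with a wide spread within WT TAC. The count was 0 without WT2, WT4, OE1, OE2 or OE4, 3 without WT1, 10 without WT3, 11 without OE3 and 2 to 4 with 1 sham heart left out, and the number higher was 1 without WT1 or WT3 and 2 without OE3. Activated fibroblast and matricellular genes had 8 of 24 lower and 0 higher (median -1.25), led by Meox1 (log2 fold change -1.45, adjusted p = 0.0289), Ckap4 (log2 fold change -0.92, adjusted p = 0.0289) and the Wnt antagonist Sfrp1 (log2 fold change -1.06, adjusted p = 0.0367). Their count was 0 without WT2, WT4, OE1, OE2 or OE4, 5 without WT1, 18 without WT3, 20 without OE3 and 2 to 4 with 1 sham heart left out. The study named matrix genes from these hearts, so these lists are not independent evidence of direction.

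Resident fibroblast markers had no common direction. Their median was -0.07 with 1 of 16 higher and 1 lower, and their share of counts was 0.206% to 0.302% in SIRT5OE TAC and 0.254% to 0.326% in WT TAC hearts (two-sided exact permutation test, p = 0.0857, adjusted p = 0.171). Scara5, a ferritin receptor of resident fibroblasts, had 353, 172, 595 and 140.3 in WT TAC and 1189.8, 1183, 306 and 1163 in SIRT5OE TAC hearts (log2 fold change 1.65, SE 0.43, adjusted p = 0.0367). Pi16, which was lower, had 13747, 12898, 6729.9 and 14143 in WT TAC and 4444, 4725, 12202 and 4007 in SIRT5OE TAC hearts (log2 fold change -1.01, SE 0.29, adjusted p = 0.0472). Both calls were lost without WT2, WT4, OE1, OE2 or OE4 or some single sham hearts (adjusted p up to 0.16), and the list had 2 higher and 3 lower without WT3 or OE3. In the TGF-beta pathway list 4 of 25 were lower and 1 higher (median -0.27). The ligand Tgfb1, taken as a further called member beside Gdf15, had 1650.3, 1910.2, 1493 and 2838 in WT TAC and 1245, 1108, 1347 and 872 in SIRT5OE TAC hearts (log2 fold change -0.76, SE 0.18, adjusted p = 0.0337). The latent TGF-beta anchor Lrrc32 had a log2 fold change of -0.93 (SE 0.21, adjusted p = 0.0329). The co-receptor Tgfbr3, which was higher, had 1415, 1343, 1572 and 1632 in WT TAC and 1741, 2202, 2037 and 2280.4 in SIRT5OE TAC hearts (log2 fold change 0.47, SE 0.11, adjusted p = 0.0326). None of these 3 overlapped between the groups. The receptors and SMADs Tgfbr1, Tgfbr2, Smad2 and Smad4 had -0.36, -0.23, 0.03 and -0.01, none called. The count of members lower was 0 without WT2, WT4, OE1, OE2 or OE4 and 9 without WT3 or OE3. That of members higher was 0 without WT2, WT4, OE2 or OE4.

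Among genes higher in SIRT5OE TAC hearts, Gpr22 kept its call whichever heart was left out. This orphan receptor of cardiomyocytes had 567, 398, 676 and 393 in WT TAC and 1593, 1588, 1115 and 1909 in SIRT5OE TAC hearts. In sham hearts the means were 2508 ± 279 (SD, n = 4) in WT sham and 3452 ± 1015 (SD, n = 3) in SIRT5OE sham hearts. Every SIRT5OE TAC heart was above every WT TAC heart, as its naming rule required, and below the mean of either sham group. The log2 fold change was 1.62 (SE 0.20, adjusted p = 0.0025), 1.51 to 1.77 with 1 heart left out, with an adjusted p of at most 0.0173 in those fits, and the fit of the TAC hearts alone ended its call. Enpp2, the secreted enzyme autotaxin, had 181, 150.0, 203 and 100.2 in WT TAC and 544, 625, 222 and 448 in SIRT5OE TAC hearts (log2 fold change 1.48, SE 0.27, adjusted p = 0.025). Ky, a peptidase of muscle, had 376, 114, 583 and 136 in WT TAC and 839, 760.1, 617 and 1192 in SIRT5OE TAC hearts (log2 fold change 1.77, SE 0.40, adjusted p = 0.0324). In neither gene did the groups overlap, as the rule that named them required. Both calls were lost without WT2, WT4, OE2 or OE4 (adjusted p up to 0.124), Ky also without OE1. Mpped2 was chosen after its values were seen, because its call held in 14 of the 15 fits with 1 heart left out. It had 345, 243, 370.4 and 359 in WT TAC and 605, 593, 630.3 and 759 in SIRT5OE TAC hearts (log2 fold change 0.98, SE 0.14, adjusted p = 0.0135), without overlap. Its call was lost only without OE4 (adjusted p = 0.0585) and in the TAC hearts alone.

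Ion channel and calcium cycling genes were higher in 7 of 22 members and lower in 0 (median 0.64, 0.45 to 0.78 with 1 heart left out). Kcnj3, a channel subunit of the acetylcholine-activated current found mainly in atria, had 834, 466, 1748 and 376 in WT TAC and 2603, 2845, 1436 and 3483 in SIRT5OE TAC hearts (log2 fold change 1.79, SE 0.36, adjusted p = 0.0281). Atrial markers without Nppa took 0.0431% to 0.141% of counts in SIRT5OE TAC and 0.077% to 0.292% in WT TAC hearts (two-sided exact permutation test, p = 0.0857, adjusted p = 0.171), and were not called higher. Kcnd2, a pore subunit of the transient outward current, had 327, 249, 721 and 281 in WT TAC and 907, 1127, 556 and 1404 in SIRT5OE TAC hearts (log2 fold change 1.40, SE 0.29, adjusted p = 0.0289). Trdn, triadin of the calcium release unit, had 14454, 12679.9, 15792 and 10409.6 in WT TAC and 21481, 20068, 16523 and 24276 in SIRT5OE TAC hearts (log2 fold change 0.63, SE 0.13, adjusted p = 0.0289), without overlap. For the other called channel genes, taken as the remaining called members, the log2 fold changes were 2.43 (adjusted p = 0.0345) for Kcnv2, 1.37 (adjusted p = 0.0347) for the channel partner Kcnip2, 1.07 (adjusted p = 0.0405) for the pacemaker channel Hcn4 and 0.82 (adjusted p = 0.0345) for the inward rectifier Kcnj2. In each of the 7 the sham means were above the WT TAC mean, Kcnip2 having 9551 ± 575 (SD, n = 4) in WT sham and 10062 ± 656 (SD, n = 3) in SIRT5OE sham hearts and 2634, 1076, 5947 and 2051 in WT TAC replicates 1 to 4. The count of members higher was 0 without WT2, WT4, OE1, OE2 or OE4, 12 without OE3 and 13 without WT3, and 1 was lower without WT3 or OE3. The calcium pump Atp2a2 had 0.79 and its inhibitor Pln 0.68, neither called.

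Renin-angiotensin, endothelin and adrenergic genes, receptors and ligands together, were higher in 4 of 20 kept members and lower in 0 (median 0.18). Adra1a, an alpha-1 adrenergic receptor, had 199.5, 134, 682 and 181 in WT TAC and 800.3, 1141, 419.6 and 1059.6 in SIRT5OE TAC hearts (log2 fold change 1.73, SE 0.39, adjusted p = 0.0324), with WT3 inside the SIRT5OE range. Agtr1a, the main angiotensin II receptor, had 1225, 566, 1476 and 889 in WT TAC and 2271, 1821, 1224 and 2071 in SIRT5OE TAC hearts (log2 fold change 0.88, SE 0.24, adjusted p = 0.042). The endothelin receptor Ednra had 0.49 (SE 0.14, adjusted p = 0.0469), while the ligands Edn1 and Agt had -0.65 and -0.57 and were not called. The number higher was 0 without WT2, WT4, OE1, OE2 or OE4 and 1 with 1 sham heart left out, and the number lower was 3 without WT3 or OE3.

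Mitochondrial energy genes that were called were nearly all higher in SIRT5OE TAC hearts, by small amounts. Of 26 genes of fatty acid uptake and oxidation 10 were higher and 0 lower (median 0.43, 0.33 to 0.57 with 1 heart left out). Decr1, which prepares polyunsaturated acyl chains for oxidation, had 16825, 12423, 18716 and 13178 in WT TAC and 28346, 22554, 18560.3 and 26097 in SIRT5OE TAC hearts (log2 fold change 0.65, SE 0.14, adjusted p = 0.0317). The sham means were 30487 ± 1178 (SD, n = 4) in WT sham and 32151 ± 2974 (SD, n = 3) in SIRT5OE sham hearts. Acadm, the medium-chain dehydrogenase, had 41969, 32124, 51487 and 36838 in WT TAC and 62878, 61565, 46930.0 and 67691 in SIRT5OE TAC hearts (log2 fold change 0.57, SE 0.14, adjusted p = 0.034), and Etfa, which passes its electrons on, 0.63 (SE 0.15, adjusted p = 0.0337). In each gene only OE3 reached into the WT TAC range. The entry step Cpt1b had 0.18 (adjusted p = 0.341) and was not called. The count was 0 without WT2, WT4, OE1, OE2 or OE4, 18 without WT3 or OE3 and 5 to 6 with 1 sham heart left out.

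Of 27 TCA cycle genes 6 were higher and 0 lower (median 0.32). Dld, a subunit shared by the 2-oxoacid dehydrogenases, had 20841, 17142, 26939 and 14535 in WT TAC and 31931, 30243, 25164 and 35263 in SIRT5OE TAC hearts (log2 fold change 0.65, SE 0.15, adjusted p = 0.0326). Sucla2, a succinyl-CoA synthetase subunit, had 25301, 20471, 33003 and 20878 in WT TAC and 42184, 35813, 30055 and 41193 in SIRT5OE TAC hearts (log2 fold change 0.60, SE 0.14, adjusted p = 0.0337). Pdha1 of pyruvate dehydrogenase had 50889, 45658, 56055 and 45727 in WT TAC and 64496, 65052, 58115 and 71322 in SIRT5OE TAC hearts (log2 fold change 0.39, SE 0.10, adjusted p = 0.0345), where the groups did not overlap. The TCA count was 0 without WT2, WT4, OE1, OE2 or OE4, 11 without OE3, 19 without WT3 and 2 to 5 with 1 sham heart left out. Nuclear genes of complex I gave 4 of 36 higher and 0 lower (median 0.27), and those of complexes III, IV and V 4 of 37 higher and 1 lower (median 0.32). Ndufab1, the acyl carrier subunit, had 10101, 8269, 11389 and 6263 in WT TAC and 14941, 13136, 13813 and 18143 in SIRT5OE TAC hearts (log2 fold change 0.76, SE 0.16, adjusted p = 0.0289). Cycs, cytochrome c, had 14538, 11851, 13148 and 10452 in WT TAC and 19966, 16699.8, 17058 and 23861 in SIRT5OE TAC hearts (log2 fold change 0.63, SE 0.13, adjusted p = 0.0281). Both genes were without overlap. The complex I count was 0 without WT2, WT4, OE1, OE2 or OE4, 10 without OE3, 16 without WT3 and 1 to 2 with 1 sham heart left out. For complexes III, IV and V the number higher was 0 without WT2, WT4, OE1, OE2 or OE4, 14 without OE3, 19 without WT3 and 2 to 4 with 1 sham heart left out, and the 1 member lower was called only in the full set and without WT3 or OE3. The letters TNAAGGTCA, read by ERR nuclear receptors and searched on both strands, were in 0 of 22 matched promoters of the fatty acid list, 1 of 24 of the TCA cycle list (Sdhd), 1 of 32 of the complex I list (Ndufb4), 1 of 29 of the list of complexes III, IV and V (Atp5g3) and 0 of 15 of the branched-chain and ketone list, beside 1.26% of all promoters.

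Messages encoded in mitochondrial DNA took 25.8%, 22.9%, 27.2% and 19.8% of the normalized counts in WT TAC replicates 1 to 4 and 31.0%, 31.4%, 27.9% and 35.0% in SIRT5OE TAC replicates 1 to 4. Every SIRT5OE TAC heart was above every WT TAC heart (31.3% ± 2.91 against 23.9% ± 3.3, SD, n = 4 each, two-sided exact permutation test, p = 0.0286), a difference of 7.36 percentage points. With 1 TAC heart left out the difference was 5.97 to 8.502 points, with an exact p of 0.0286 without WT3 or OE3 and 0.0571 without any other 1 of them. In sham hearts the share was 35.5% ± 0.656 (SD, n = 4) for WT mice and 34.3% ± 0.432 (SD, n = 3) for SIRT5OE mice. There every SIRT5OE sham heart was below every WT sham heart, opposite to the TAC hearts (difference -1.24 percentage points, two-sided exact permutation test, p = 0.0571). Of the 13 messages 3 were called, all higher: mt-Atp8 (log2 fold change 1.15, SE 0.25, adjusted p = 0.032), mt-Nd6 (log2 fold change 0.60, SE 0.15, adjusted p = 0.0367) and mt-Nd2 (log2 fold change 0.78, SE 0.22, adjusted p = 0.044). This count was 0 without WT2, WT4, OE2 or OE4, 1 without OE1, 8 without OE3, 9 without WT3 and 1 to 2 with 1 sham heart left out. Some of these reads may be shared with nuclear copies such as Gm28661. The calls of mt-Nd6 and mt-Nd2 were also lost after quantile normalization.

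**Figure D4:**
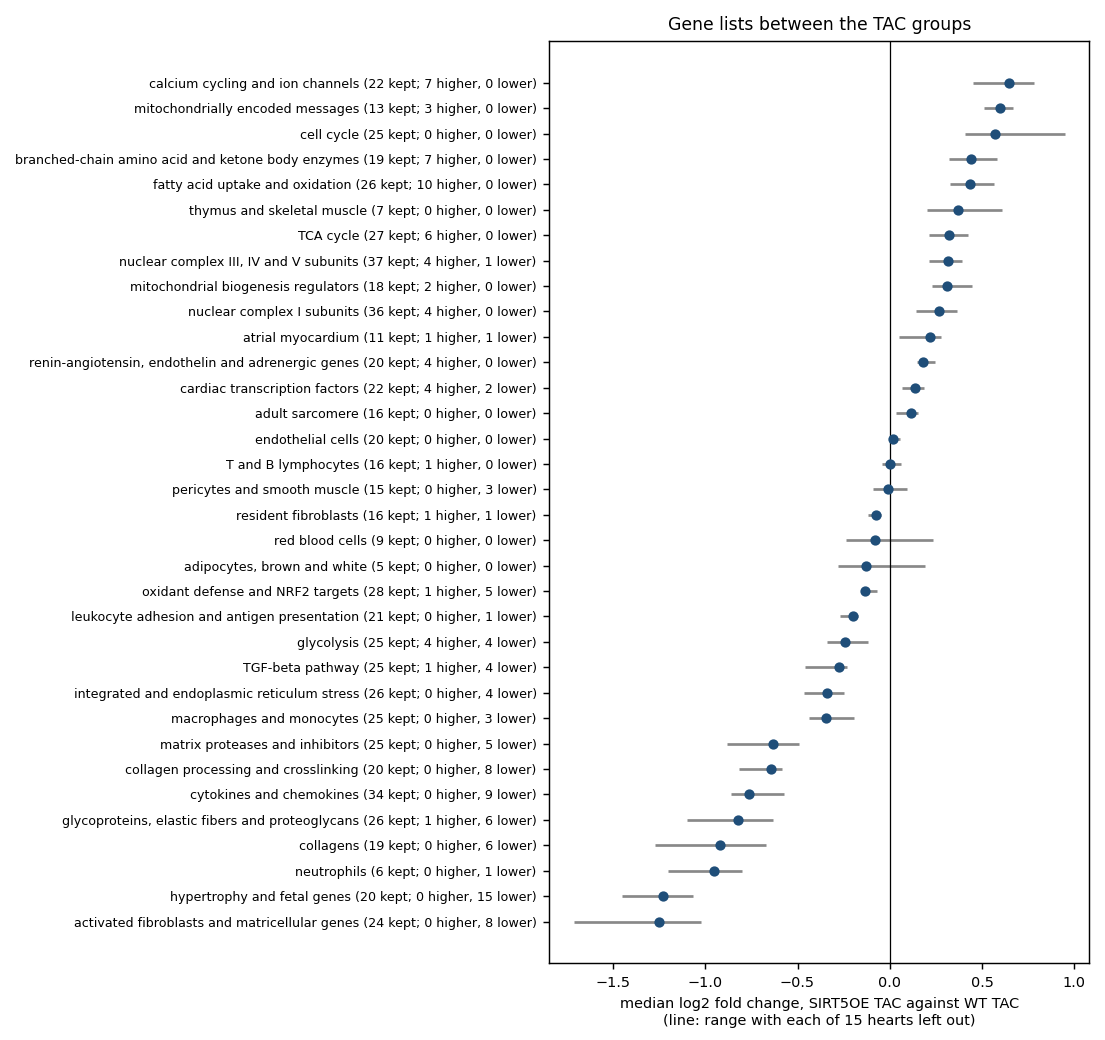
Median log2 fold change (SIRT5OE TAC against WT TAC, horizontal axis) of the kept members of each gene list, with a line for its range when each of the 15 hearts is left out in turn and the number of members called beside each name. Activated fibroblast and hypertrophy genes lie at -1.25 and -1.23, ion channels and mitochondrially encoded messages at 0.64 and 0.60, and endothelial and lymphocyte markers near 0.

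Enzymes of branched-chain amino acid and ketone body use were higher in 7 of 19 members and lower in 0 (median 0.44). Ppm1k, the phosphatase that activates branched-chain ketoacid dehydrogenase, had 2201, 1948, 3722 and 1620.3 in WT TAC and 4364, 6143, 3436 and 6935 in SIRT5OE TAC hearts (log2 fold change 1.16, SE 0.22, adjusted p = 0.0281). Pcca of propionyl-CoA carboxylase had 3006, 3328, 3651 and 2699.6 in WT TAC and 4264, 4247, 4068 and 4414 in SIRT5OE TAC hearts (log2 fold change 0.43, SE 0.09, adjusted p = 0.0317), without overlap. The count was 0 without WT2, WT4, OE2 or OE4, 1 without OE1, 13 without OE3 and 14 without WT3. The biogenesis list had 2 of 18 higher and 0 lower (median 0.31). The mitochondrial transcription factor Tfb2m had 3554, 3105, 4356 and 2772 in WT TAC and 4535, 4755, 5177 and 5607 in SIRT5OE TAC hearts (log2 fold change 0.56, SE 0.12, adjusted p = 0.0317). The nuclear receptor Esrrg had 2147, 1786, 2225 and 1359 in WT TAC and 2809.9, 3421, 2269 and 3739.6 in SIRT5OE TAC hearts (log2 fold change 0.70, SE 0.16, adjusted p = 0.0326). Both lacked overlap, and the count was 0 without WT2, WT4, OE1, OE2 or OE4, 7 without WT3 and 9 without OE3. Perm1, a muscle partner of ERR receptors, had a log2 fold change of 0.47 (adjusted p = 0.055) and was not called.

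Glycolysis genes went both ways, with 4 of 25 higher and 4 lower (median -0.24). Pgam1, a phosphoglycerate mutase, had 7931, 9599, 6217 and 9037 in WT TAC and 5302, 4210.1, 6940.3 and 4260.3 in SIRT5OE TAC hearts (log2 fold change -0.67, SE 0.15, adjusted p = 0.0326), and the glucose transporter Slc2a1 and the enolase Eno1, picked as further called members, had -1.14 (adjusted p = 0.0367) and -0.55 (adjusted p = 0.0408). On the other side Pfkfb2, the heart isoform of the fructose-2,6-bisphosphate enzyme, had 2607, 1576, 3220.1 and 1488 in WT TAC and 3341, 4575, 3536 and 4645 in SIRT5OE TAC hearts (log2 fold change 0.92, SE 0.21, adjusted p = 0.0327). Its relative Pfkfb1 had 72.6, 34, 193 and 88.6 in WT TAC and 325, 331, 125 and 347 in SIRT5OE TAC hearts (log2 fold change 1.68, SE 0.40, adjusted p = 0.0337). The muscle isoforms Pfkm and Eno3 had 0.49 (adjusted p = 0.0476) and 0.72 (adjusted p = 0.0477). The number lower was 0 without WT2, WT4, OE1, OE2 or OE4, 8 without WT3, 9 without OE3 and 1 to 3 with 1 sham heart left out. The number higher was 0 without WT2, WT4, OE1, OE2 or OE4 and 2 with 1 sham heart left out. In the oxidant defense list 5 of 28 were lower and 1 higher (median -0.14). Srxn1, which reduces oxidized peroxiredoxins, had 2110.1, 2678, 1947 and 3266 in WT TAC and 1662, 1576, 1865 and 1655 in SIRT5OE TAC hearts (log2 fold change -0.54, SE 0.14, adjusted p = 0.035), the extracellular dismutase Sod3 -0.80 (SE 0.20, adjusted p = 0.0354) and the peroxidase Gpx1 -0.71 (SE 0.18, adjusted p = 0.0367), while the mitochondrial Sod2 had 0.33 (adjusted p = 0.126) and was not called. The number lower was 0 without WT2, WT4, OE1, OE2 or OE4 and 0 to 3 with 1 sham heart left out. The number higher was 3 without WT3, 1 without OE3 and 0 without any other 1 of the 15 hearts.

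Of 22 cardiac transcription factors 4 were higher and 2 lower (median 0.14). Srf, which drives immediate early and cytoskeletal genes, had 5067, 5358, 4488 and 5603 in WT TAC and 3814, 3532, 3715 and 3252 in SIRT5OE TAC hearts (log2 fold change -0.52, SE 0.11, adjusted p = 0.0289). Its partner Myocd, which was higher, had 1484, 1350.1, 1599.5 and 1506 in WT TAC and 1927, 2485, 1790.2 and 2218 in SIRT5OE TAC hearts (log2 fold change 0.49, SE 0.12, adjusted p = 0.0332). Neither gene overlapped between the groups. Klf15, which is turned down in hypertrophy, had 1098, 803, 1323 and 1187 in WT TAC and 1885, 2170.3, 1217 and 1854 in SIRT5OE TAC hearts (log2 fold change 0.68, SE 0.17, adjusted p = 0.0342). The clock-driven factor Dbp had 1647, 995, 3490.0 and 2438 in WT TAC and 3361, 3526, 5124 and 5986 in SIRT5OE TAC hearts (log2 fold change 1.175, SE 0.30, adjusted p = 0.036). Hlf of the same family, named above for its place near Col1a1, had 296, 237, 935 and 575 in WT TAC and 910.3, 1003, 1350.0 and 2366 in SIRT5OE TAC hearts (log2 fold change 1.56, SE 0.36, adjusted p = 0.0332). Nr1d2, a clock repressor chosen after its values were seen, had 3374, 3454, 4971 and 3358 in WT TAC and 5448, 7337, 6973 and 9904 in SIRT5OE TAC hearts (log2 fold change 0.96, SE 0.16, adjusted p = 0.0226), without overlap. The time of day at which hearts were taken is not given in the sources used here. The number of factors higher was 0 without WT2, WT4, OE1, OE2 or OE4. The number lower was 0 without WT2, WT4, OE2 or OE4, 1 without WT1 or OE1, 4 without WT3 and 1 with 1 sham heart left out. The calls of Dbp, Hlf and Nr1d2 were lost without WT2, WT4, OE2 or OE4 (adjusted p up to 0.134), Dbp and Hlf also without OE1 and Dbp also without WT1 or SIRT5OE sham replicate 2.

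The other cell type lists gave few or no calls. Endothelial markers had 0 of 20 called (median 0.02), with 4 lower and 1 higher without WT3, 2 lower and 1 higher without OE3 and 1 lower without WT1, and took 0.279% to 0.359% of counts in SIRT5OE TAC and 0.292% to 0.352% in WT TAC hearts. Of 15 pericyte and smooth muscle markers Cspg4, Mcam and Des were lower and 0 higher (median -0.01), although Des is also an intermediate filament of cardiomyocytes. These markers took 0.288% to 0.438% of counts in SIRT5OE TAC and 0.38% to 0.835% in WT TAC hearts (two-sided exact permutation test, p = 0.0571, adjusted p = 0.171). Des entered this share, with 194892 of the 63960360 summed normalized counts of OE3, and the share was not computed without it. Cspg4 had 3051, 2764, 2526 and 5179 in WT TAC and 2011, 1825, 2272 and 1665 in SIRT5OE TAC hearts (log2 fold change -0.75, SE 0.17, adjusted p = 0.0326). The number lower was 0 without WT2, WT4, OE1, OE2 or OE4, 5 without WT3 and 1 to 2 with 1 sham heart left out. The number higher was 5 without WT3 and 3 without OE3. Cell cycle genes had 0 of 25 called and a median of 0.57, with 12 higher without WT3 and 1 without OE3. Mki67, a proliferation marker, had 281, 366, 1199 and 120.0 in WT TAC and 1011, 803, 658 and 913 in SIRT5OE TAC hearts (log2 fold change 1.26, SE 0.46, adjusted p = 0.0919), all 4 SIRT5OE TAC hearts inside a WT TAC range that WT3 sets. Markers of red blood cells had 0 of 9 called and took 0.0701% to 0.127% of counts in SIRT5OE TAC and 0.0782% to 0.197% in WT TAC hearts. Adipocyte markers, with 5 of 12 kept, took 0.00694% to 0.0109% and 0.00787% to 0.0112%, and thymus and skeletal muscle markers, with 7 of 14 kept, 0.0953% to 0.129% and 0.0543% to 0.132%, with 0 called in either beyond 1 thymus or skeletal muscle marker higher without WT3. The adipocyte list held Plin5 and the thymus and skeletal muscle list Ckm. Whether these shares came from cells other than cardiomyocytes was not tested.

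Hearts of 1 group did not respond alike. Each TAC heart was placed between the WT TAC mean (0) and the SIRT5OE TAC mean (1) of the other hearts, over DEGs found without it and without Sirt5. OE3 stood at a median of 0.23 over 822 genes, nearer to WT TAC, and WT3 at 0.80 over 962 genes, nearer to SIRT5OE TAC. WT1 stood at 0.37 over 324 genes and OE1 at 0.81 over 44. For the other 4 hearts there were 3 to 9 such genes, too few to place them. Leaving out the hearts nearest the other group raised the number of calls, as given above, and that is no evidence of the group difference.

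The number of genes of OE3 inside the WT TAC range differed between gene lists. The share of all genes inside this range is not given for any heart, so these counts cannot be set against a general level. Of 19 collagens OE3 had 15 inside the WT TAC range, where OE1, OE2 and OE4 had 3, 1 and 1. Of 20 hypertrophy genes it had 15 inside, the others 1 each, and of 26 fatty acid genes 24, the others 0, 3 and 5. Of 36 complex I genes OE3 had 31 inside, and so did OE2. Among 13 mitochondrially encoded messages it had 2 inside, and among 6 neutrophil markers 0, where OE1, OE2 and OE4 had 1, 3 and 3. For Gdf15, Socs3, Gadd45g, Ankrd2 and Gpr22, which were named because the TAC groups did not overlap, that rule fixed its place outside the WT TAC range. For Cxcl2 and Ndufab1, named for a small p in their lists, OE3 also lay outside. The share of mitochondrially encoded counts was 27.9% in OE3, the lowest of its group.

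**Figure D5:**
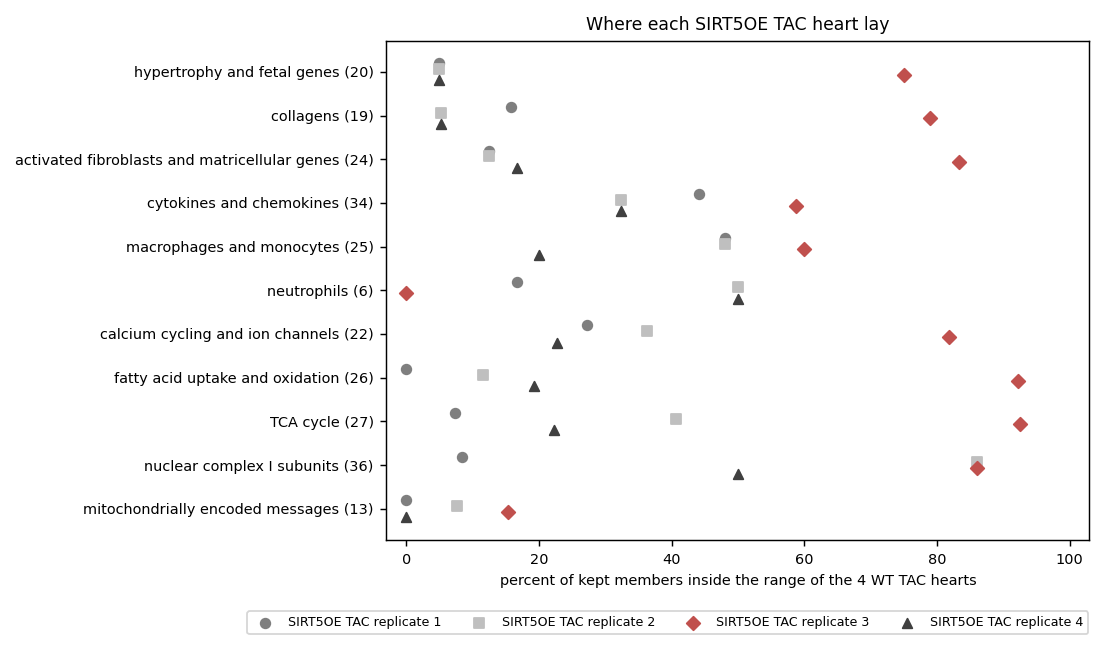
Percent of the kept members of each gene list (number kept in brackets) whose value in a SIRT5OE TAC heart lay between the lowest and highest WT TAC heart, with a marker for each heart. OE3 (red diamonds) had 15 of 19 collagens and 24 of 26 fatty acid genes inside the range but 2 of 13 mitochondrially encoded messages and 0 of 6 neutrophil markers. The share of all genes inside the range is not shown.

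The interaction gives the test of whether the difference between genotypes differed between TAC and sham hearts. Its 5 genes of smallest p were Gm17428, Ttc41, 1 of 2 gene IDs of the mitochondrial transhydrogenase Nnt (ENSMUSG00000116207), Spata33 and the deiodinase Dio3, with adjusted p from limma of 0.265 to 0.349. Ttc41 had 63.5, 62.2, 55.1 and 73.5 in WT TAC and 155, 115, 117 and 173 in SIRT5OE TAC hearts, and sham means of 186 ± 4.29 (SD, n = 4) in WT sham and 143 ± 22.3 (SD, n = 3) in SIRT5OE sham hearts. Spata33 had 284, 217, 239 and 223 in WT TAC and 459, 432, 404 and 452 in SIRT5OE TAC hearts, and sham means of 435 ± 54.7 (SD, n = 4) in WT sham and 381 ± 49.4 (SD, n = 3) in SIRT5OE sham hearts. In both genes WT TAC hearts were below the other 3 groups' means, and the log2 fold changes between the TAC groups were 1.11 (SE 0.18, adjusted p = 0.0226) and 0.86 (SE 0.13, adjusted p = 0.0214). Dio3, which inactivates thyroid hormone, had 64.2, 213, 25.4 and 503 in WT TAC and 9.77, 13.2, 51.3 and 16.1 in SIRT5OE TAC hearts (log2 fold change -2.60, SE 0.75, adjusted p = 0.0483). Its sham values were 0, 0, 0 and 0 in WT sham replicates 1 to 4 and 9.5, 5.54 and 3.57 in SIRT5OE sham replicates 1 to 3. The Nnt ID had 12572, 10473, 12851 and 9342 in WT TAC and 17023, 15189.7, 16265 and 24495 in SIRT5OE TAC hearts (log2 fold change 0.68, SE 0.14, adjusted p = 0.0289), while the other ID, whose reads cannot be told apart from it with certainty, was not called (adjusted p = 0.494). With WT3 left out 45 genes passed the interaction test, and with OE1 left out 1 did. Among the TAC calls, that of Spata33 was lost without WT2, OE2 or OE4, that of Ttc41 without WT2 or OE4, and those of Dio3 and Nnt without these and further hearts.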

How the data were processed

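RNA was sequenced from 15 whole hearts in 4 groups. Per the submitters' processing notes, reads were checked with FastQC and quantified with kallisto 0.43.1 against mm10. The paper's methods name a later kallisto version and an Ensembl cDNA reference, and which was used cannot be told here. The deposited values are signal, gene abundances that the authors summed from transcripts and divided by DESeq2 size factors, so depth was removed and values need not be whole. Genes with at least 10 in at least 3 hearts were tested on log2(value + 1) with limma 3.58.1 (R 4.3.3, empirical Bayes with a mean-variance trend) over all 15 hearts, with Benjamini-Hochberg adjustment. The p-values rest on the spread between 3 or 4 hearts a group. For single values the test was an exact permutation test, two-sided.

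Named were the 12 highest and 12 lowest DEGs with non-overlapping TAC groups and a mean of at least 100, the 3 members of smallest p in each list, DEGs of both surgeries, the 5 smallest interaction p-values and genes the study names. One gene that the rule names is not reported here. Other genes were added after their values were seen, and are given as further examples. Members and lists were chosen with earlier results of these data known. Alternatives were the pseudocount, the filter, the scaling, the fit and each heart left out. One gene ID per set of identical values and protein-coding genes alone were chosen after seeing the data. Transcripts were aligned with BLAST 2.17.0.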

Additional observations from a re-analysis of the deposited data

Results flagged for a closer look

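In 251 sets of 4 hearts examined for the genes named above, 19 single values stood far from the other 3 of their group by Dixon's criterion, which chance meets in about 1 of 20 sets. Of these, 9 were in SIRT5OE TAC replicate 3, namely 99.1 normalized counts for Adamts20, 32608 for Col1a2, 194892 for Des, 51.3 for Dio3, 365329 for Nppa, 125 for Pfkfb1, 12202 for Pi16, 306 for Scara5 and 34267 for Synpo2l. In WT TAC replicate 3 it was 682 for Adra1a, 721 for Kcnd2, 4971 for Nr1d2 and 6729.9 for Pi16. In SIRT5OE TAC replicate 4 it was 289 for Gm17428 and 3242 for Mcam. WT TAC replicate 4 had 13.997 for Gm10184, 5.55 for Gm8494 and 7654 for Gpx1, and WT TAC replicate 1 had 375 for LT629151.4. The cause was not tested for any of them.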

How the results depend on the processing

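The number of DEGs between the TAC groups, 165 higher and 153 lower, was 49 and 35 with no filter, 2 and 1 with the TAC groups fitted alone, 17 and 4 with no mean-variance trend, and 635 and 573 at the adjusted p alone. Listed genes called, 61 higher and 84 lower, became 13 and 16 with no filter, 1 and 0 in the TAC groups alone, 1 and 2 with no trend, and 95 higher with the stricter filter. The 18 genes called within 10 Mb of Col1a1 became 5 with no filter, 30 with the stricter filter, 29 with totals equal outside mitochondrial genes, 0 in the TAC groups alone, 1 with no trend and 28 within 20 Mb. Sham DEGs, 3 higher and 0 lower, were 5 higher with no filter, 1 with the stricter filter, 1 among protein-coding genes (an alternative chosen after seeing the data), 2 lower in the sham groups alone, and 6 and 5 with array weights. Against Col3a1 alone the relative level of Col1a1 differed by -0.42 (exact permutation test, p = 0.0571). With 1 heart left out, DEGs ranged from 4 to 469 higher and 0 to 494 lower, listed genes from 1 to 166 and 0 to 167, genes near Col1a1 from 0 to 50, sham DEGs from 1 to 3 and 0 to 1, interaction genes from 0 to 45, the mitochondrial share from 5.97 to 8.502 percentage points and relative Col1a1 from -0.42 to -0.27. The cause was not tested, beyond fewer samples in the smaller fits. Of the named genes followed through these alternatives, mt-Co2, which was not called, turned from 0.17 to -0.31 with quantile normalization, and no other changed sign. Genes not called and given without an adjusted p, such as Hspa5, Asns, Smad2 and Smad4, were not followed.

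Labels give replicate numbers shared by the groups but do not say that equal numbers mark a shared litter or day. Deviations of same-numbered hearts correlated at -0.30 to 0.078 over 21 pairs, and those of different-numbered hearts at -0.18 to 0.21 over 63 pairs. These values cannot show whether same-numbered hearts shared a litter, surgery batch or day, and hearts were treated as unpaired. With the replicate number as a block, DEGs were 11 higher and 0 lower, listed genes called 2 and 0, genes near Col1a1 2, and sham DEGs 1 higher. Depth per heart was not recoverable, so counting error of low genes such as Gm8494 is unknown.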
